A study of Rattus norvegicus with 12 samples.

Results

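Oxidative phosphorylation is described here in whole rat lung through the nuclear genes for the subunits of the 5 respiratory complexes. The members were all probe sets of a rat genome array whose gene symbol begins with Nduf, Uqcr or Atp5, begins with Cox followed by a digit from 4 to 8, or is Sdha, Sdhb, Sdhc or Sdhd. The rule used no measured value and found 103 of 31099 probe sets. Of these, 96 carried 1 symbol, for 86 genes, and 7 carried several symbols, so that no gene is named from them. A probe set was kept where its log2 value was at least 4 on at least 3 of the 12 arrays. This left 85 probe sets with 1 symbol, for 81 genes, and all 7 with several symbols, out of 16536 probe sets kept in the series. Each gene is described by its kept probe set of highest mean, and a further probe set is given where it differed.

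The lungs came from 12 male, age-matched Sprague-Dawley rats, 3 in each of 4 groups, with 1 array per lung. Juvenile rats weighing 91 ± 9 g were given congestive heart failure (CHF) by a band on the aorta above the coronary arteries, and their lungs were taken 9 weeks later. Sham rats were operated on without a band. Within each surgery, rats received either placebo or ketotifen fumarate, a mast cell stabiliser, a daily dose of 1 mg per kg body weight added to the drinking water from day 1 after surgery. The 4 groups were therefore sham placebo, CHF placebo, sham ketotifen and CHF ketotifen, and all rats shared strain and sex. The series' design text calls the CHF rats without ketotifen untreated, whereas their sample labels say placebo. The banded rats are described as having left heart failure with a preserved ejection fraction and secondary pulmonary hypertension. The RNA was from all cells of the lung, so that fewer cells of a type and less RNA per cell cannot be told apart.

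The respiratory chain sits in the inner mitochondrial membrane. Complex I (NADH dehydrogenase) and complex II (succinate dehydrogenase) pass electrons to ubiquinone, complex III (cytochrome bc1) hands them to cytochrome c, and complex IV (cytochrome c oxidase) gives them to oxygen. Complexes I, III and IV pump protons, and complex V (ATP synthase) uses the gradient to make ATP. Most subunits are encoded in the nucleus, and complex IV has subunit isoforms that are used mainly in heart and skeletal muscle or mainly in lung.

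All values below are log2 expression values as deposited, and lungs are always given in the order 1, 2, 3 of their labels. The 7 kept alveolar type 2 markers averaged between 12.80 and 13.79 in every lung. The median over all kept probe sets was between 7.09 and 7.28 on each array. The beta-actin control probe sets differed between the 3′ and 5′ ends by 4.52 in sham ketotifen lung 2, by 4.23 in sham placebo lung 2 and by 3.90 in sham placebo lung 3, against 2.90 to 3.45 in the other lungs. The arrays of CHF ketotifen lungs 1 and 3 were the closest pair, with an SD of 0.258 over the differences of all kept probe sets and 0.397 for the next pair. Several marker lists moved with surgery, where 11.0% of all kept probe sets were called higher and 9.92% lower over both drugs. Of the 8 kept macrophage markers, 7 were called higher in CHF over both drugs (array means 6.92 to 8.54 in sham and 8.80 to 10.15 in CHF), and of the 5 endothelial markers 4 were called lower (11.84 to 12.12 in sham and 10.45 to 11.79 in CHF). Both kept red cell markers were called higher. Higher calls for 1 of 7 alveolar type 2 (14.3%) and 1 of 10 smooth muscle and pericyte markers (10%) were near that background. Of 2 skeletal muscle markers, Acta1 was called higher, while Myh1 went the other way without a call (-0.68). Lower calls were made for 3 of 6 ciliated and 3 of 5 club cell markers, and 0 of 3 adipocyte markers were called. Of 17 cardiomyocyte markers on the array, 9 were kept, and none of these was called. Their array means were high in 3 sham lungs, lung 3 with placebo and lungs 1 and 2 with ketotifen. These means were 5.94 to 8.72, against 2.88 to 3.64 in the other lungs. Myh6, Tnni3, Myl4, Myl7 and Csrp3 reached 4 only in these 3 lungs, so they passed the filter through them. Pln did not follow this pattern, at 7.18 in sham placebo lung 2. Not kept were Myh7, Myl2, Myl3, Nppa and Nppb, at most 2.95 in every lung. Ryr2, Ttn and Ckm were not kept either, and their highest values fell in these 3 lungs. The part of any of the marker lists in the results below was not tested.

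The oxidative phosphorylation genes moved together from lung to lung, and the levels were higher in CHF than in sham lungs by a small amount. For each lung, the deviation of each gene from its mean over 12 arrays was taken, and the median over the 81 genes is given. In sham placebo lungs this median was -0.16, -0.17 and -0.16. In CHF placebo lungs it was 0.32, -0.02 and 0.02. All 3 CHF placebo lungs were above all sham placebo lungs, but lung 1 stood far above the other two. With ketotifen it was -0.15, 0.12 and -0.13 in sham lungs and 0.04, 0.28 and 0.03 in CHF lungs, so that sham lung 2 lay inside the CHF range. Over all 9788 genes kept, the same median lay between -0.10 and 0.04.

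A pair of CHF lungs held most of the highest values. Of the 81 genes, 31 were highest in CHF placebo lung 1 and 30 in CHF ketotifen lung 2, and 8 were highest in sham ketotifen lung 2. The lowest value fell in sham ketotifen lung 1 for 29 genes, in sham placebo lung 2 for 21 and in sham placebo lung 3 for 15. A gene's correlation over the 12 arrays with the median of the other members had a median of 0.80, and 56 genes were above 0.7. These points share arrays and normalisation, so the correlation is a description. The 3 genes with a negative correlation were Sdha, Cox4i2 and Cox8b.

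**Figure D1:**
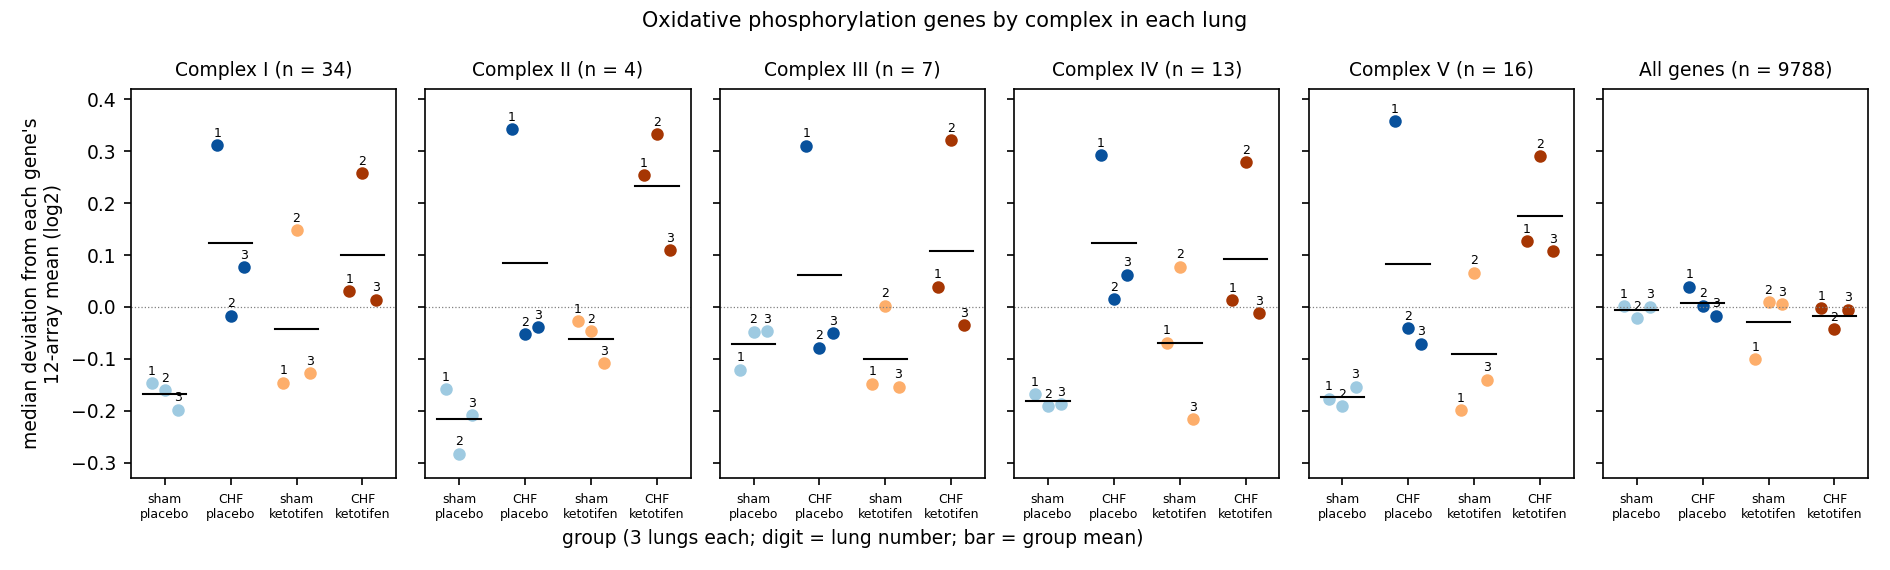
Median deviation of the genes of each respiratory complex from their 12-array mean (log2, vertical axis) in each lung of the 4 groups, with all 9788 genes in the last panel. Points are lungs with their number, and bars are group means. Over the 81 genes CHF placebo lung 1 (0.32) and CHF ketotifen lung 2 (0.28) were the highest lungs, and over all 9788 genes the lungs lay between -0.10 and 0.04.

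With placebo, nearly all subunit genes had a higher mean in CHF than in sham lungs, and none passed the test. The question of this comparison is what left heart failure does to the lung without drug. Of the 81 genes, 78 had a positive difference, with a median of 0.26 on the log2 scale, beside 0.01 and 51.4% positive over all genes. By complex, the median difference was 0.27 for I, 0.34 for II, 0.13 for III, 0.27 for IV and 0.25 for V. The 3 genes with a negative difference were Sdha, Ndufa3 and Cox8b. In limma's test 0 of 81 were called at an adjusted p under 0.05, where the background was 0.169% of all kept probe sets (0.145% higher and 0.0242% lower). At an unadjusted p under 0.05 there were 29, all higher (35.8%, against 10.5% of all kept probe sets higher and 9.62% lower). All 3 CHF lungs were above all 3 sham lungs for 39 genes (48.1%), against a background of 12.7%, and below them for 0, against 10.7%.

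The largest placebo differences were in single subunits of complexes I and IV. Cox7a1, the heart and muscle isoform of a complex IV subunit, differed by 0.75 ± 0.26 (adjusted p = 0.166), where the error is the SE of the fit, as in all differences below. Cox5b, a subunit found in all tissues, differed by 0.71 ± 0.18 (adjusted p = 0.109), the smallest adjusted p of any member in this comparison. Ndufs8, an iron-sulfur subunit of complex I, differed by 0.64 ± 0.19 (adjusted p = 0.127). Ndufb6, an accessory subunit of the complex I membrane arm, differed by 0.62 ± 0.21 (adjusted p = 0.15). Without sham placebo lung 1, 4 members were called higher (Cox5b, Cox6a1, Ndufa8 and Ndufb4), and the background rose to 9.05% of probe sets. Without CHF placebo lung 1, the median difference was 0.18.

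With ketotifen in both groups, the surgery difference ran the same way for most genes, and 3 members were called. Here 70 of 81 genes were higher in CHF, with a median of 0.19 beside 0.0047 over all genes. The median was 0.15 for complex I, 0.35 for II, 0.19 for III, 0.23 for IV and 0.27 for V. Uqcrfs1 and Atp5if1 were called higher and Cox4i2 lower, against a background of 13.0% in either direction, 6.36% higher and 6.61% lower. Counted over the 92 kept member probe sets, 6 were called, 4 higher and 2 lower (6.52%). Beside the 3 genes these were the dimmer Ndufa7 probe set, lower, and a pair with several symbols, higher by 0.44 and 0.82. All CHF lungs were above all sham lungs for 24 genes (29.6%, background 19.2%) and below for 2, Cox4i2 and Cox8b (background 20.8%). The count of 3 changed with single lungs: it was 10 without CHF placebo lung 1, 1 without CHF placebo lung 2, sham ketotifen lung 1 or CHF ketotifen lung 3, and 0 without sham placebo lung 3, sham ketotifen lung 3, CHF ketotifen lung 1 or CHF ketotifen lung 2. The share of all kept probe sets called in these runs is not given here. Without the 3 lungs of high cardiomyocyte markers, sham ketotifen lung 3 is alone in its group, so no count is given.

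The placebo and ketotifen comparisons share no array, so their signs can be set side by side. In both, 69 genes had a higher mean in CHF, and 2, Sdha and Cox8b, a lower one. The placebo difference of Cox8b was -0.10 ± 0.89, and it turned positive when CHF placebo lung 1 (0.77) or sham placebo lung 3 (0.47) was left out. The sign was opposite for 10: Cox4i2, Cox6c, Cox7a1, Ndufa3, Ndufa8, Ndufaf3, Ndufaf5, Ndufb10, Ndufb4 and Ndufs3. Some of these lay near 0 in 1 arm, such as Cox4i2 with placebo (0.01), whose sign turned when single lungs were left out. Across genes, which are not independent, the correlation of the differences was 0.33. Ndufb4, an accessory subunit of complex I, shows how a gene could differ. With placebo it read 11.32, 11.05 and 11.02 in sham and 11.77, 11.55 and 11.51 in CHF lungs. With ketotifen it read 11.33, 11.68 and 11.46 in sham and 11.45, 11.54 and 11.38 in CHF lungs. The CHF lungs were apart from the sham lungs with placebo only, and the interaction was -0.51 ± 0.18 (SE; adjusted p = 0.355), which did not pass the test.

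**Figure D2:**
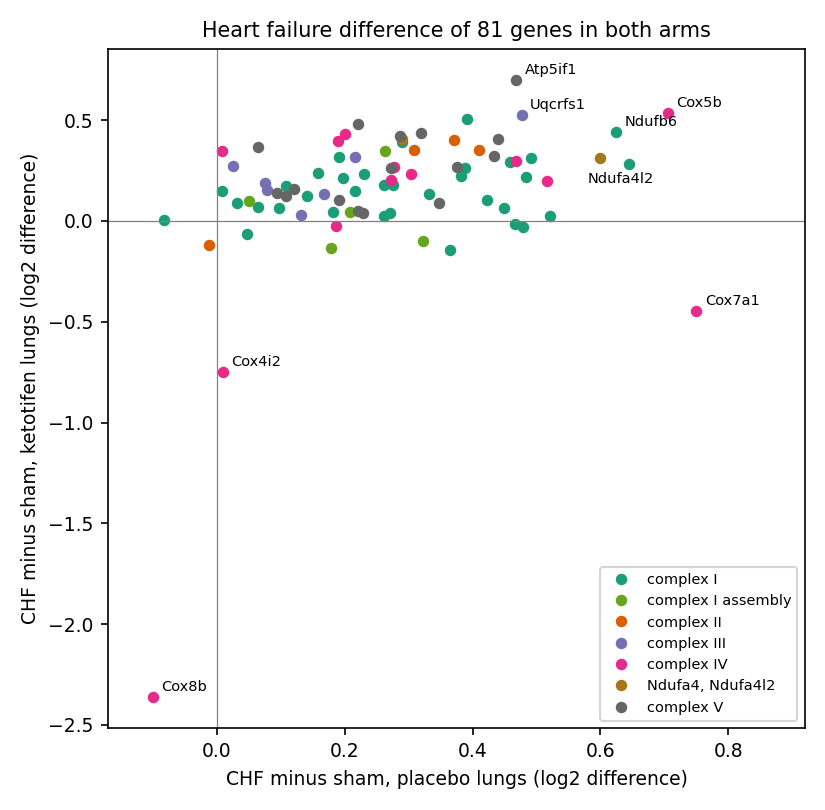
CHF minus sham difference (log2) of each of the 81 genes in placebo lungs (horizontal axis) and in ketotifen lungs (vertical axis), coloured by complex. Most points (69) lie above 0 on both axes, while Cox8b (-2.36 with ketotifen), Cox4i2 (-0.75) and Cox7a1 (0.75 with placebo, -0.45 with ketotifen) lie apart.

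The average of both surgery differences uses all 12 lungs and gave the most calls. Over both drugs, 76 of 81 genes were higher in CHF, with a median of 0.23 beside -0.0018 over all genes. By limma, 17 genes were called higher and 0 lower, which is 21.0% of members. Over all kept probe sets the background was 21.0% in either direction, 11.0% higher and 9.92% lower. Counted by gene, as the members are, it was 23.1% in either direction and 12.7% higher over 9788 genes. The 17 differences were 0.27 to 0.62, which is 1.20-fold to 1.54-fold. At an unadjusted p under 0.05, 40 genes were higher (49.4%, against 18.5% of all kept probe sets) and 1, Cox4i2, lower (1.23%, against 19.1%). Calls fell in each complex: 4 of 34 genes in I, 3 of 4 in II, 1 of 7 in III, 5 of 13 in IV and 4 of 16 in V. These are 11.8% in I, 75% in II, 14.3% in III, 38.5% in IV and 25% in V. They are to be read against 11.0% of all kept probe sets and 12.7% of all kept genes. None of the 5 assembly factors of complex I was called.

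How many members were called depended on the lungs. The share of all kept probe sets called in each single-lung run is not given here, so these counts stand without a background. Leaving out 1 lung gave 8 without sham placebo lung 2, 7 without sham placebo lung 3, 9 without CHF placebo lung 1, 10 without sham ketotifen lung 1, 9 without sham ketotifen lung 3, 11 without CHF ketotifen lung 1, 9 without CHF ketotifen lung 2 and 13 to 21 without each of the other lungs. Called in all 12 of these runs were Atp5if1, Atp5pb, Cox5b, Cox6a1, Sdhb, Sdhd and Uqcrfs1. Without both lungs of highest level (CHF placebo lung 1 and CHF ketotifen lung 2), Atp5if1, Atp5pb, Cox5b and Uqcrfs1 were called and the median was 0.15. Without the 3 lungs of high cardiomyocyte markers, which leaves sham ketotifen lung 3 alone in its group, the median was 0.24. The 3 lungs of largest beta-actin difference were sham placebo lungs 2 and 3 and sham ketotifen lung 2. Without them, sham placebo lung 1 was alone in its group, and the median was 0.26.

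**Figure D3:**
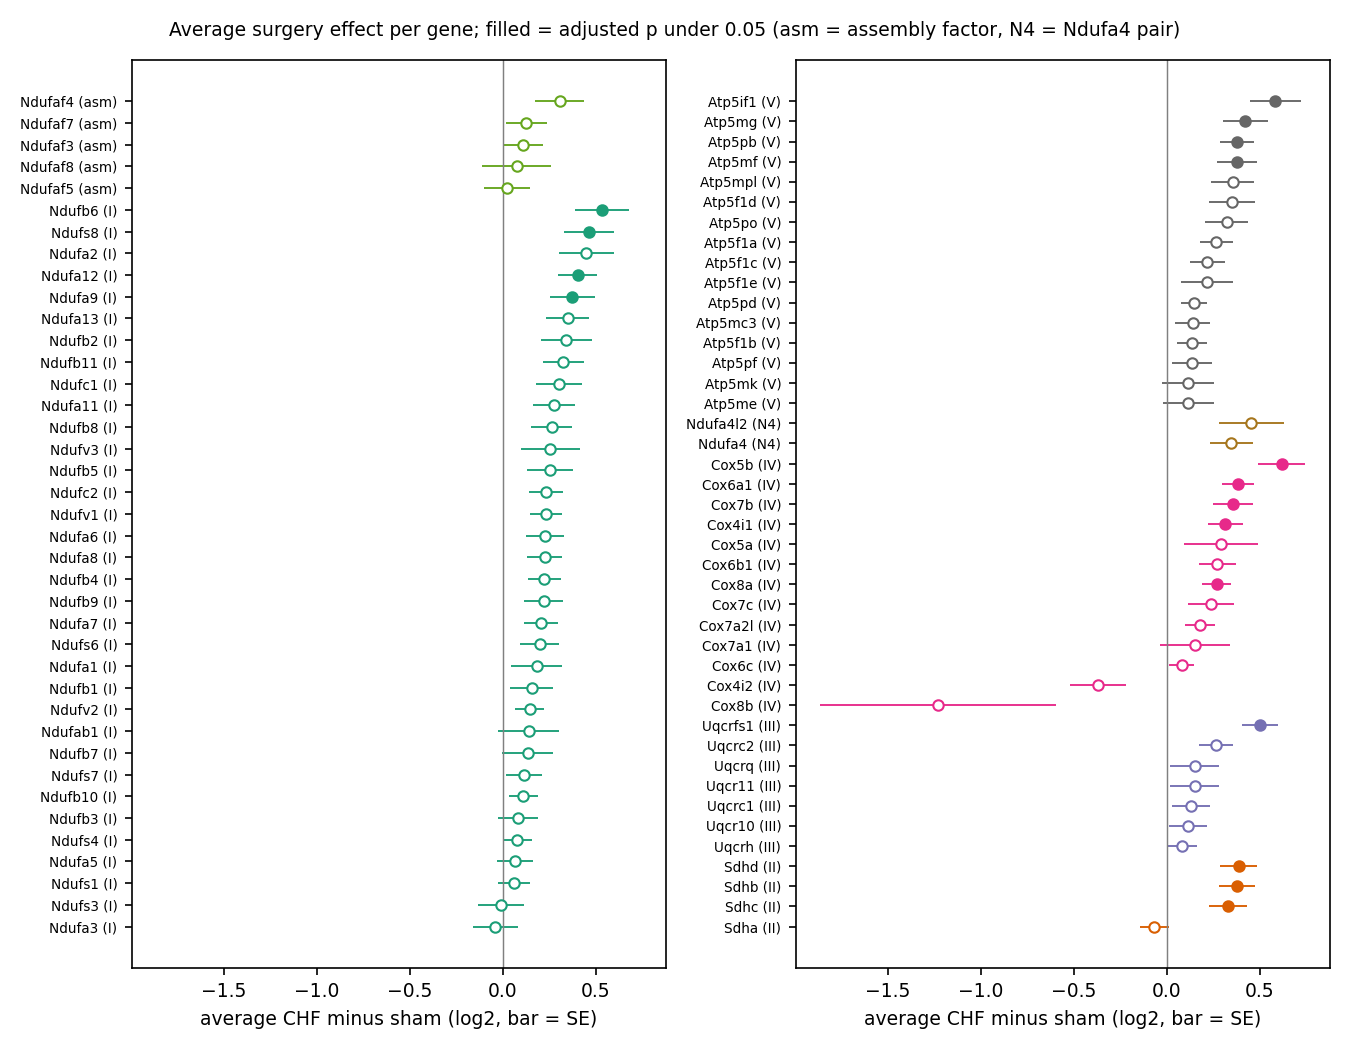
Average CHF minus sham difference (log2, horizontal axis) of each gene, with its SE as a bar and filled points for an adjusted p under 0.05. The 17 called genes lie between 0.27 and 0.62, and Cox4i2 and Cox8b are the genes farthest below 0.

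Promoters of the members carry motifs of factors known to control nuclear respiratory genes. Of the 81 genes, 74 had an entry in the RefSeq promoter table (GRCr8), and the 250 bases before the annotated start were searched on both strands. The NRF1 core motif was in 12 of 74 (16.2%), against 3.75% of 33469 promoters. The ETS core CCGGAAG, which GABP binds, was in 20 of 74 (27%), against 7.27%. Among the 16 called genes with an entry, 1 held the NRF1 core and 6 the ETS core. YY1 (AAGATGG) was in 5.41% of members and 4.62% of all, the estrogen-related receptor site (AAGGTCA) in 8.11% and 3.99%, and RBPJ (TTCCCAC) in 5.41% and 5.27%. In 0 member promoters did matches of different motifs share a base. The median GC content was 55.6% in members and 51.2% in all promoters. A match is a run of letters and shows no binding.

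The windows of 80 bases that hold these matches in called genes are printed 5′ to 3′ on the gene's strand, with the core in capitals (the NRF1 core in Ndufa12 and the ETS core, on either strand, in the others). They lie at chr7:30658169-30658248 (plus strand) for Ndufa12, chr1:210573699-210573778 (minus) for Ndufs8, chr5:158547789-158547868 (plus) for Sdhb, chr8:59850647-59850726 (minus) for Sdhd, chr9:46417757-46417836 (plus) for Cox5b, chr1:213833624-213833703 (minus) for Cox8a and chr8:54130578-54130657 (minus) for Atp5mg. They are shown because these are the called members whose promoter holds either core.
Ndufa12: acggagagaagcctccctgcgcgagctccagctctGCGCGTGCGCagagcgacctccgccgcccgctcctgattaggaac
Ndufs8: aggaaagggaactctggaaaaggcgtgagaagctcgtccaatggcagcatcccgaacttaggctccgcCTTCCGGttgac
Sdhb: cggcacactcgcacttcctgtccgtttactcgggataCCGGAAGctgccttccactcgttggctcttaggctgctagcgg
Sdhd: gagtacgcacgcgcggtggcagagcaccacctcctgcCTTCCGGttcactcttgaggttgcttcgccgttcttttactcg
Cox5b: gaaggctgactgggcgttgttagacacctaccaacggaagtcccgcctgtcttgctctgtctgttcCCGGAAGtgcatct
Cox8a: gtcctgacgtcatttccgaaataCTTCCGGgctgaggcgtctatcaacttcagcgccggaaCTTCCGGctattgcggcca
Atp5mg: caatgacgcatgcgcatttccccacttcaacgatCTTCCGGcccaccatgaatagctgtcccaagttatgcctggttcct
Cox8a is the one window with 2 ETS cores. The ETS core nearest to the start of the gene began 12 bases before the start in Ndufs8, 14 in Cox5b, 19 in Cox8a and 48 in Sdhd, and 108 in Sdhb and 216 in Atp5mg.

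Complex I takes electrons from NADH, and 4 of its 34 genes were called, all higher (11.8%). This share is near those of all kept probe sets (11.0%) and all kept genes (12.7%). Of the 4 called genes, Ndufb6 had the largest difference. With placebo, Ndufb6 read 9.03, 8.58 and 8.89 in sham and 9.79, 9.27 and 9.31 in CHF lungs. With ketotifen, Ndufb6 read 8.75, 9.46 and 9.30 in sham and 9.66, 9.67 and 9.49 in CHF lungs. In each drug group the CHF lungs were all above the sham lungs, and the average difference was 0.53 ± 0.15 (adjusted p = 0.0278). Ndufs8 carries iron-sulfur clusters in the arm that leads to ubiquinone. With placebo, Ndufs8 read 7.47, 7.10 and 7.20 in sham and 8.27, 7.70 and 7.74 in CHF lungs. With ketotifen, Ndufs8 read 7.68, 7.82 and 7.56 in sham and 7.75, 8.23 and 7.93 in CHF lungs. The groups were apart with placebo and overlapped with ketotifen, and the average difference was 0.46 ± 0.13 (adjusted p = 0.0343). Ndufa12 is an accessory subunit. With placebo, Ndufa12 read 8.71, 8.85 and 8.77 in sham and 9.59, 9.13 and 9.09 in CHF lungs. With ketotifen, Ndufa12 read 8.90, 9.16 and 8.97 in sham and 9.31, 9.42 and 9.23 in CHF lungs. The groups did not overlap with either drug, with an average difference of 0.40 ± 0.10 (adjusted p = 0.0219). Ndufa9 lies near the ubiquinone site, and its average difference was 0.37 ± 0.12 (adjusted p = 0.0482).

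Apart from Ndufs8, the core subunits of complex I that were measured did not pass the test. Ndufv1, which binds NADH, differed by 0.23 ± 0.09 (adjusted p = 0.0761), and Ndufv2 by 0.14 ± 0.08 (adjusted p = 0.21). Ndufs1 differed by 0.06 ± 0.09 (adjusted p = 0.637), Ndufs3 by -0.01 ± 0.12 (adjusted p = 0.971) and Ndufs7 by 0.11 ± 0.10 (adjusted p = 0.414). Ndufa2, an accessory subunit, had the largest complex I difference with ketotifen, 0.51 ± 0.21 (adjusted p = 0.125). The lowest complex I differences were those of Ndufa3 with placebo (-0.08 ± 0.17; adjusted p = 0.827) and Ndufb10 with ketotifen (-0.14 ± 0.11; adjusted p = 0.412). Ndufa7 had a pair of kept probe sets that disagreed with ketotifen. The brighter one differed by 0.21 ± 0.13 (SE; adjusted p = 0.277), and the dimmer one, between 4.35 and 5.56 on all arrays, by -0.79 ± 0.21 (adjusted p = 0.0328). Of the 5 assembly factors, Ndufaf3 differed most with placebo, 0.32 ± 0.15 (adjusted p = 0.248), and Ndufaf4 had the largest average difference, 0.31 ± 0.13 (adjusted p = 0.111).

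Complex II links the citrate cycle to the chain, and its subunits split. Sdhb, the iron-sulfur subunit, and the membrane anchors Sdhc and Sdhd rose, while the catalytic flavoprotein Sdha did not pass the test. With placebo, Sdhb read 10.06, 9.65 and 9.97 in sham and 10.54, 10.20 and 10.15 in CHF lungs. With ketotifen, Sdhb read 10.20, 10.18 and 10.14 in sham and 10.58, 10.52 and 10.47 in CHF lungs. CHF and sham lungs did not overlap with either drug, and the average difference was 0.38 ± 0.10 (adjusted p = 0.0216). With placebo, Sdhd read 10.60, 10.32 and 10.59 in sham and 11.11, 10.67 and 10.84 in CHF lungs. With ketotifen, Sdhd read 10.52, 10.70 and 10.62 in sham and 10.99, 11.17 and 10.89 in CHF lungs. Its groups did not overlap either, and the average difference was 0.39 ± 0.10 (adjusted p = 0.0214). The dimmer probe set of Sdhd differed by 0.57 ± 0.15 (SE; adjusted p = 0.0219). Sdhc differed by 0.33 ± 0.10 (adjusted p = 0.0426). With placebo, Sdha read 10.35, 10.24 and 10.47 in sham and 10.29, 10.44 and 10.30 in CHF lungs. With ketotifen, Sdha read 10.60, 10.37 and 10.44 in sham and 10.27, 10.48 and 10.31 in CHF lungs. Sdha overlapped between all groups, with an average difference of -0.07 ± 0.08 (adjusted p = 0.569). Its range over all 12 lungs was 10.24 to 10.60.

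Complex III had a single call. Uqcrfs1, the Rieske iron-sulfur protein, had the smallest adjusted p of all members in the average surgery effect. With placebo, Uqcrfs1 read 10.12, 9.89 and 10.08 in sham and 10.75, 10.38 and 10.40 in CHF lungs. With ketotifen, Uqcrfs1 read 10.42, 10.44 and 10.15 in sham and 10.76, 11.02 and 10.81 in CHF lungs. No CHF lung overlapped with a sham lung of the same drug. The difference was 0.48 ± 0.14 (adjusted p = 0.124) with placebo, 0.52 ± 0.14 (adjusted p = 0.0332) with ketotifen and 0.50 ± 0.10 (adjusted p = 0.00876) on average, 1.41-fold. The core proteins Uqcrc1 and Uqcrc2 differed by 0.13 ± 0.10 (adjusted p = 0.366) and 0.27 ± 0.09 (adjusted p = 0.0591). A second Uqcrc2 probe set differed by 0.67 ± 0.23 (SE; adjusted p = 0.0615). All 7 genes of the complex had a positive average difference, with a median of 0.15.

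Complex IV had 5 calls, none in an isoform used mainly in heart and skeletal muscle. Cox5b showed the largest average difference of the 17 called genes, 1.54-fold. With placebo, Cox5b read 9.68, 9.32 and 9.46 in sham and 10.56, 10.01 and 10.01 in CHF lungs. With ketotifen, Cox5b read 9.74, 10.10 and 9.75 in sham and 10.36, 10.58 and 10.24 in CHF lungs. The groups did not overlap with either drug, and the average difference was 0.62 ± 0.13 (adjusted p = 0.0101). Cox6a1 is the isoform of subunit VIa outside heart and muscle. With placebo, Cox6a1 read 10.79, 10.58 and 10.51 in sham and 11.28, 10.98 and 11.02 in CHF lungs. With ketotifen, Cox6a1 read 10.72, 10.89 and 10.67 in sham and 11.02, 11.19 and 10.98 in CHF lungs. It was the one member for which all 6 CHF lungs were above all 6 sham lungs (1.23% of the genes). The share over all kept probe sets was not counted for this. The average difference of Cox6a1 was 0.38 ± 0.09 (adjusted p = 0.0157). Cox7b differed by 0.36 ± 0.11 (adjusted p = 0.0364), Cox4i1, the common isoform of subunit IV, by 0.32 ± 0.09 (adjusted p = 0.0341), and Cox8a, the common isoform of subunit VIII, by 0.27 ± 0.08 (adjusted p = 0.0356). Cox6b1 differed by 0.27 ± 0.10 (adjusted p = 0.077) and Cox7a2l by 0.18 ± 0.08 (adjusted p = 0.138), and neither passed the test. With ketotifen, Cox4i1 differed by 0.43 ± 0.13 (adjusted p = 0.0512).

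Complex V makes ATP, and 4 of its 16 genes were called. Atp5if1, the inhibitor that stops the enzyme from running backwards, was among them. With placebo, Atp5if1 read 9.07, 9.16 and 9.09 in sham and 9.95, 9.43 and 9.34 in CHF lungs. With ketotifen, Atp5if1 read 9.04, 9.42 and 9.20 in sham and 9.89, 10.24 and 9.62 in CHF lungs. The lungs did not overlap by surgery with either drug. Its difference was 0.47 ± 0.19 (adjusted p = 0.215) with placebo, 0.70 ± 0.19 (adjusted p = 0.0387) with ketotifen and 0.58 ± 0.14 (adjusted p = 0.0166) on average. Atp5pb is a stalk subunit. With placebo, Atp5pb read 11.29, 11.21 and 11.46 in sham and 11.94, 11.52 and 11.46 in CHF lungs. With ketotifen, Atp5pb read 11.46, 11.55 and 11.46 in sham and 11.88, 11.99 and 11.91 in CHF lungs. With ketotifen the groups were apart, and with placebo CHF lung 3 and the highest sham lung both read 11.46. Its average difference was 0.38 ± 0.09 (adjusted p = 0.0192). The membrane subunits Atp5mg and Atp5mf differed by 0.42 ± 0.12 (adjusted p = 0.0299) and 0.38 ± 0.11 (adjusted p = 0.0309). The alpha, beta and gamma subunits of the catalytic head, Atp5f1a, Atp5f1b and Atp5f1c, differed by 0.27 ± 0.09 (adjusted p = 0.0535), 0.14 ± 0.08 (adjusted p = 0.228) and 0.22 ± 0.09 (adjusted p = 0.119), so that none of them passed the test. With ketotifen the delta subunit Atp5f1d differed by 0.48 ± 0.17 (adjusted p = 0.0884). Atp5mc3, one of the genes for the rotating c subunit, differed by 0.14 ± 0.09 (adjusted p = 0.295).

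Isoforms of restricted tissue use are described singly. Cox6a2, the heart and muscle isoform of subunit VIa, did not pass the filter. It read 1.73, 1.75 and 6.03 in sham placebo, 1.91, 1.75 and 1.75 in CHF placebo, 3.88, 8.13 and 1.72 in sham ketotifen, and 1.78, 1.72 and 1.76 in CHF ketotifen lungs. Only 3 sham lungs were above the level of the rest. The mean of 9 kept cardiomyocyte markers was 7.58 in the sham lung 3 given placebo, 5.94 and 8.72 in the sham lungs 1 and 2 given ketotifen, and 2.88 to 3.64 in the other 9 lungs. The order of the 3 lungs was the same in both. Some of the 9 markers passed the filter only through these lungs, and the source of Cox6a2 was not tested. None of these 9 markers was called in the average surgery effect.

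Cox8b is the heart and muscle isoform of subunit VIII. With placebo, Cox8b read 5.67, 6.69 and 7.88 in sham and 4.92, 7.32 and 7.70 in CHF lungs. With ketotifen, Cox8b read 7.53, 9.52 and 6.38 in sham and 6.03, 4.73 and 5.60 in CHF lungs. The values spanned 4.73 to 9.52, the widest range of the 81 genes kept, and its highest lung was sham ketotifen lung 2. Its difference with ketotifen was -2.36 ± 0.89 (adjusted p = 0.101). Without the 3 lungs of high cardiomyocyte markers, which leaves sham ketotifen lung 3 alone in its group, that difference was -0.93. In the 3 lungs of high cardiomyocyte markers Cox8b read 7.88 (sham placebo lung 3), 7.53 and 9.52 (sham ketotifen lungs 1 and 2). In the other lungs it read 4.73 to 7.70. Which cells held Cox8b was not tested.

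Cox7a1 is the heart and muscle isoform of subunit VIIa. With placebo, Cox7a1 read 7.22, 7.06 and 6.71 in sham and 7.78, 8.13 and 7.34 in CHF lungs. With ketotifen, Cox7a1 read 7.76, 7.39 and 8.29 in sham and 7.32, 7.63 and 7.16 in CHF lungs. With placebo the CHF lungs were all above the sham lungs, while with ketotifen they overlapped. The interaction was -1.20 ± 0.37 (SE; adjusted p = 0.28), which did not pass the test. Of the lungs of high cardiomyocyte markers, sham placebo lung 3 was its lowest lung, at 6.71.

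Cox4i2 is the isoform of subunit IV known for its expression in lung and its induction by low oxygen. With placebo, Cox4i2 read 5.33, 5.42 and 5.71 in sham and 5.69, 5.51 and 5.29 in CHF lungs. With ketotifen, Cox4i2 read 5.61, 6.19 and 5.85 in sham and 4.83, 5.29 and 5.29 in CHF lungs. With ketotifen all CHF lungs were below all sham lungs, a difference of -0.75 ± 0.21 (adjusted p = 0.0405), and with placebo they overlapped, at 0.01 ± 0.21 (adjusted p = 0.986). The call with ketotifen held in 5 of the 12 fits that left out 1 lung. The interaction did not pass the test (adjusted p = 0.398). Without the 3 lungs of high cardiomyocyte markers, which leaves sham ketotifen lung 3 alone in its group, the difference with ketotifen was -0.71.

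Ndufa4l2, a relative of Ndufa4 that is known to be induced by low oxygen, was higher in CHF on average without passing the test. With placebo, Ndufa4l2 read 7.09, 6.46 and 6.78 in sham and 7.76, 7.19 and 7.18 in CHF lungs. With ketotifen, Ndufa4l2 read 7.34, 7.20 and 7.12 in sham and 7.71, 7.05 and 7.84 in CHF lungs. The groups were apart with placebo and overlapped with ketotifen. The average difference was 0.46 ± 0.17 (adjusted p = 0.0822), and that of Ndufa4, now placed with complex IV, was 0.35 ± 0.12 (adjusted p = 0.0549).

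**Figure D4:**
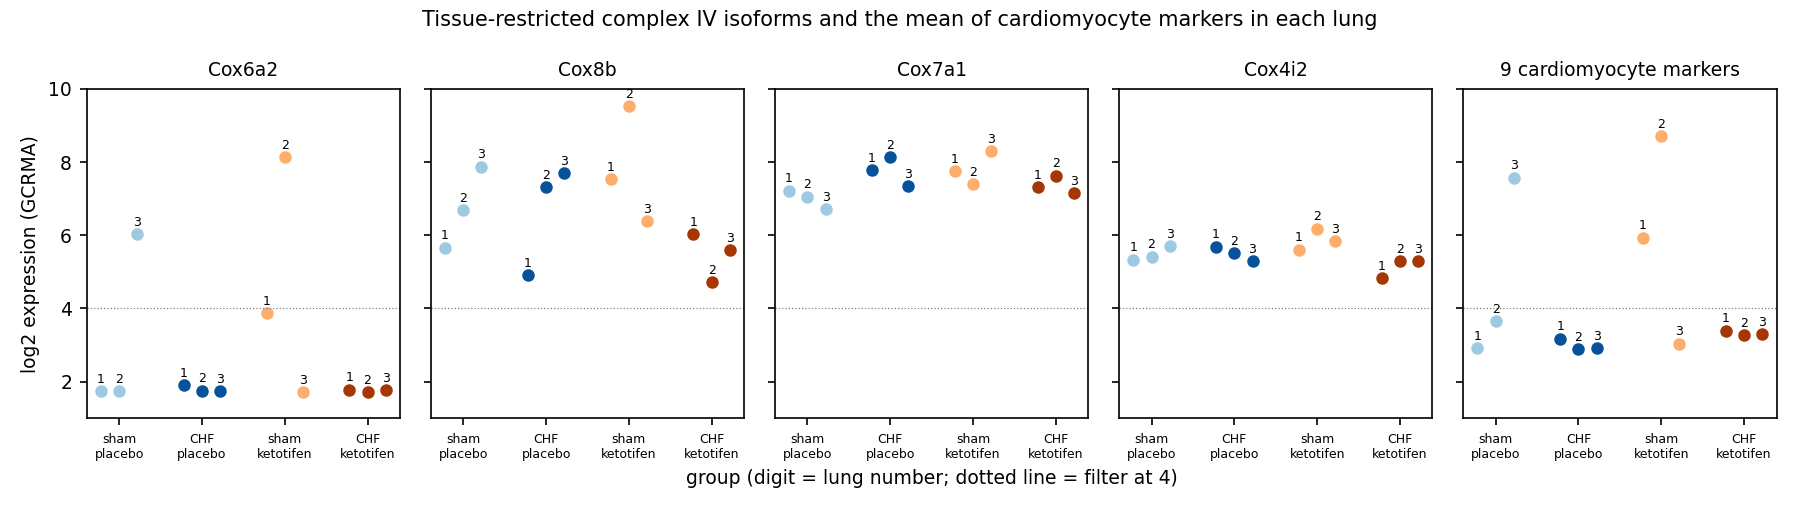
Log2 expression (vertical axis) of 4 complex IV isoforms of restricted tissue use and the mean of 9 cardiomyocyte markers in each lung of the 4 groups, with lung numbers. Cox6a2 is above 3 in the same 3 sham lungs in which the marker mean is above 5. The highest Cox4i2 value (6.19) is also in sham ketotifen lung 2, and the lowest Cox7a1 value (6.71) is in sham placebo lung 3.

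The genes closest in pattern to these isoforms over the 12 arrays were found among the kept genes outside the members, by Pearson correlation. For Cox8b they were Cpd (0.95), Nedd4, Atp2a3, Dcn and Maoa. For Cox7a1 they were Acbd3 (0.92), Dapk2, Gca, Anxa4 and Slc39a4. The nearest to Ndufa4l2 were Idh3g (0.93), Mgst3, Asf1a, Mdh2 and Higd1b, and to Cox4i2 Zbtb9 (0.86), Tefm, Cth, Cstf2t and Pms1. The correlations were chosen as the highest among all kept genes outside the members and are a description.

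No member was called for ketotifen within either surgery group. In CHF rats, where the comparison asks what mast cell stabilisation does to the failing animal's lung, 50 genes were higher and 31 lower with the drug, with a median of 0.02. By limma 0 were called, against a background of 1.22% (0.822% higher and 0.393% lower), and at an unadjusted p under 0.05 there was 1 higher, Uqcrfs1 (0.35 ± 0.14; adjusted p = 0.222), and 1 lower, Ndufaf5 (-0.40 ± 0.17; adjusted p = 0.276), together 2.47% of the genes against 17.1% of all kept probe sets. All CHF ketotifen lungs were above all CHF placebo lungs for 3 genes (background 9.86%) and below for 4 (background 15.5%). Without CHF placebo lung 1, Atp5pb was called, and the share of all kept probe sets called in that run is not given here. In sham rats 61 genes were higher and 20 lower, with a median of 0.11. Again 0 were called, against 0.0847% (0.0423% higher and 0.0423% lower), with 7 genes higher at an unadjusted p under 0.05 (8.64%, against 6.31% of all kept probe sets), among them Cox7a1 (0.82 ± 0.26; adjusted p = 0.258), Ndufb4 (0.36 ± 0.13; adjusted p = 0.29) and Atp5f1c (0.37 ± 0.13; adjusted p = 0.291). All ketotifen sham lungs were above all placebo sham lungs for 19 genes (23.5%, background 7.50%), and below for 0 (background 8.87%). The median in sham rats was 0.03 without sham ketotifen lung 2, the highest sham lung. The interaction of surgery and drug called 0 members, against 0.369% (0.254% higher and 0.115% lower), and 6 were lower at an unadjusted p under 0.05 (7.41%, against 6.31% of all kept probe sets).

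Other genes of mitochondrial energy metabolism were followed by lists chosen with earlier results of these data known. The mitochondrial ribosome, which makes the subunits encoded in mitochondrial DNA, was followed too: 67 of 73 genes were higher in CHF on average, with a median of 0.23, and 10 were called higher (13.7%, near the 11.0% of all kept probe sets) and 0 lower (background 9.92%), led by Mrpl50 (0.74). Of 35 other respiratory chain and assembly genes, the median was 0.11, with 2.86% called in each direction. Cox14, an assembly factor of complex IV, was called higher (0.49 ± 0.13; adjusted p = 0.0232), and Cox20, a chaperone of the same complex, lower (-0.74 ± 0.20; adjusted p = 0.0266). Slc25a5, which exchanges ADP for ATP, was the called gene among 7 carriers (14.3%; 0.50 ± 0.11; adjusted p = 0.0136). Of 16 genes of the citrate cycle and pyruvate dehydrogenase, Idh3g (0.37), Dld (0.34) and Pdhx (0.75) were called higher (18.8%), with a median of 0.12. Of 17 fatty acid oxidation genes, Etfa (0.48) and Etfb (0.62), which carry electrons to the chain, were called higher (11.8%), with a median of 0.15.

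Glycolysis had the highest median of the lists, 0.30 over 15 genes. Called higher were Eno1 (0.74), Pfkp (0.67), Ldha (0.63), Aldoa (0.44), Pgk1 (0.42) and Tpi1 (0.39), and the muscle phosphofructokinase Pfkm was called lower (-0.78), which is 40% of the list higher and 6.67% lower. Over all kept probe sets, 11.0% were called higher and 9.92% lower. The regulators of mitochondrial genes were the one list with a negative median, -0.10 over 15 genes. Of these genes 6.67% were called higher and 13.3% lower, near the shares of all kept probe sets. Ppargc1a, the coactivator known to raise mitochondrial gene expression, was called lower. With placebo, Ppargc1a read 6.35, 6.05 and 6.33 in sham and 3.75, 4.73 and 4.39 in CHF lungs. With ketotifen, Ppargc1a read 4.48, 5.93 and 5.45 in sham and 3.84, 4.90 and 4.55 in CHF lungs. The groups were apart with placebo and overlapped with ketotifen, and the average difference was -1.41 ± 0.28 (SE; adjusted p = 0.00893). Sirt3, a mitochondrial deacetylase, was also called lower (-0.45 ± 0.11; adjusted p = 0.0219), and Pprc1, a relative of Ppargc1a, higher (0.47 ± 0.15; adjusted p = 0.0448). Nrf1 (0.03), Gabpa (-0.12), Esrra (0.32) and Tfam (0.02) did not pass the test.

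**Figure D5:**
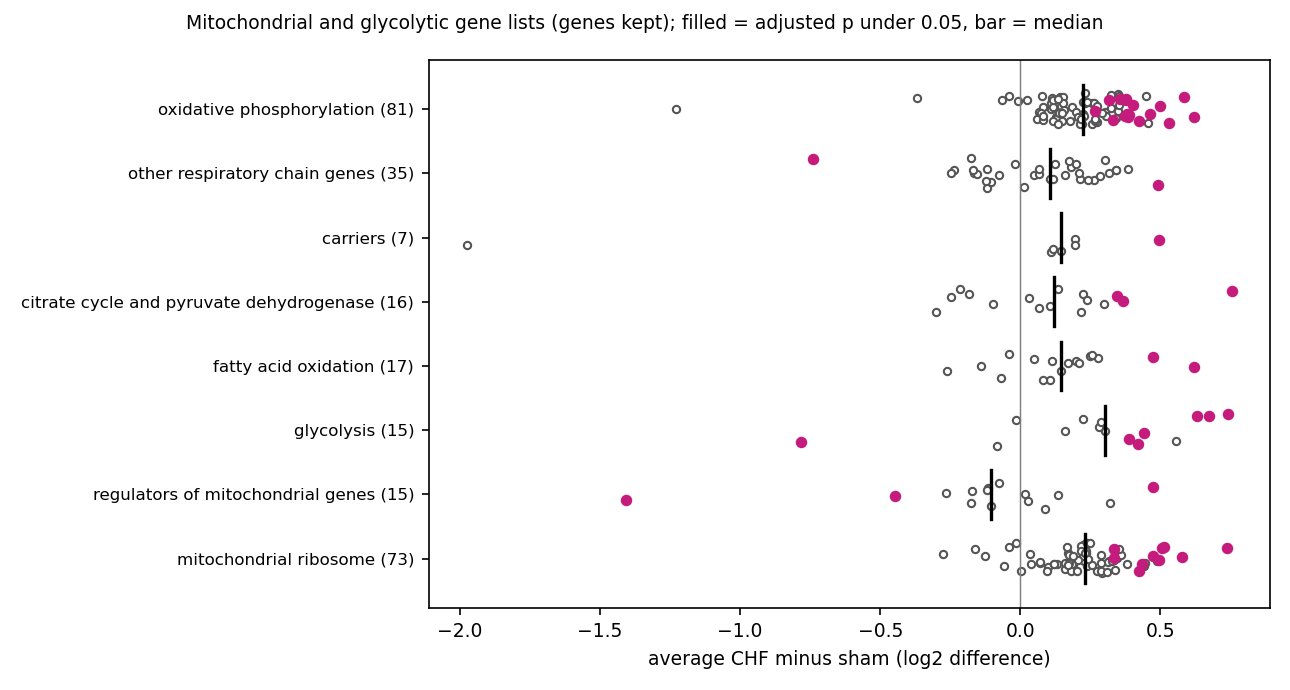
Average CHF minus sham difference (log2, horizontal axis) of each kept gene of the members and of 7 other lists, with filled points for an adjusted p under 0.05 and a bar at the list's median. Medians are 0.23 for oxidative phosphorylation and the mitochondrial ribosome, 0.30 for glycolysis and -0.10 for the regulators, where Ppargc1a lies at -1.41.

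The members that could not be followed are few. Of the 11 probe sets with 1 symbol that were not kept, 8 were below 4 on all arrays, at 2.16 to 3.37. Cox6a2, Cox6b2, Cox6c-ps1, Cox7b2 and Ndufaf1 had no kept probe set, and the others were further probe sets of Atp5if1, Atp5me, Atp5po, Ndufa9 and Ndufaf7. Nearest to the filter were the dimmer Ndufa7 probe set, for which the third highest array was at 5.07, and Cox6a2, at 3.88. Among the 7 probe sets with several symbols, 3 were called higher in the average surgery effect, by 0.37, 0.49 and 0.65. Over all 92 kept member probe sets, 21 were called there, all higher (22.8%, against 11.0% of all kept probe sets).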

How the data were processed

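Whole-lung RNA of 12 rats was hybridised to 1 Affymetrix array per lung. The deposited values are log2 expression per probe set. GCRMA and R 2.5.0 are named in the submitters' processing notes, and other settings were not given. GCRMA values flatten near background, so differences of dim probe sets have an uncertain size. Gene symbols came from the platform annotation. The 57 control probe sets were left out, and probe sets at log2 of at least 4 on at least 3 arrays were kept.

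The test was limma's (version 3.58.1, R 4.3.3) on 1 fit of 12 arrays with 4 group means, two-sided, with an intensity trend and Benjamini-Hochberg adjustment over all 16536 kept probe sets; a gene was called at an adjusted p under 0.05. Errors after ± are SEs of this fit (n = 3 lungs a group), and 8 residual degrees of freedom limit precision. The script was tested on simulated data. Levels of different probe sets were not compared. Named genes were those called, the isoforms of restricted tissue use with their partners, core subunits, genes not kept and, of the 2 largest differences in each direction per complex and comparison, those the text turns on. Members and lists were chosen with earlier results of these data known. Alternatives were the filter, the trend, quantile normalisation, the samples in the fit, a replicate block, the mean of a gene's probe sets and left-out lungs. The labels give no batch or date, so none was used as a block.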

Additional observations from a re-analysis of the deposited data

Results flagged for a closer look

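Cox6a2, the heart and muscle isoform of complex IV subunit VIa, was not kept by the filter but reached 8.13 in sham ketotifen lung 2, above the highest sham placebo lung at 6.03. A further probe set of Atp5if1 that was not kept reached 4.21 in CHF ketotifen lung 2, which is above all sham placebo lungs. Both values lie in data outside the tests, and no test was made of them.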

How the results depend on the processing

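Over 23 settings no called result changed sign, while 12 of 74 gene results followed one by one, none of them called, did so in at least 1 setting. The median differences over the members stayed within 1 SD between arrays (0.139) of the values reported, whereas counts of called members moved more. This is a loose bound beside medians of 0.23 in the average surgery effect and 0.11 for ketotifen in sham rats. Leaving out the 3 lungs of high cardiomyocyte markers, or the 3 of largest beta-actin difference, leaves 1 lung in a sham group. No count is given for these fits. In the average surgery effect, 17 became 8 with no filter, 11 with quantile normalisation and 10 with CHF ketotifen arrays 1 and 3 averaged. It became 4 without CHF placebo lung 1 and CHF ketotifen lung 2, an alternative chosen after seeing the data. Leaving out each lung gave 7 to 21, and the shares over all kept probe sets in these runs are not given here. In CHF against sham with ketotifen, 3 became 0 with no filter, 5 with the mean of a gene's probe sets and 0 with CHF ketotifen arrays 1 and 3 averaged. Leaving out each lung gave 0 to 10 there, 0 to 4 in CHF against sham with placebo and 0 to 1 for ketotifen in CHF rats. With no filter more probe sets were tested (31042), and left-out lungs leave fewer samples; the cause of the other changes was not tested. The replicate numbers were not used as pairs: of 18 same-numbered pairs 5 correlated above 0.1 (range -0.35 to 0.26). With the replicate block 17 members were called in the average surgery effect, 16 of them in common, and 2 with ketotifen. Of 20 called gene results, 7 passed whichever single lung was left out, and 0 changed sign.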
